A study of Mus musculus with 8 samples.

Results

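Integrins are cell-surface receptors built from an alpha and a beta subunit, and the subunits considered here are those that bind collagen or fibronectin, or release transforming growth factor beta (TGF-beta) from its latent form. The 10 members were the alpha v subunit gene Itgav, its beta partners Itgb1, Itgb3, Itgb5, Itgb6 and Itgb8, the fibronectin receptor subunit Itga5, and the collagen receptor subunits Itga1, Itga2 and Itga11. They were taken by gene symbol, whatever their values, from a table of 24612 genes in 8 mouse skin RNA-seq libraries. All 10 were found and all 10 passed the filter on low values (at least 10 in at least 2 libraries).

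TGF-beta is secreted bound to its own propeptide, and latent TGF-beta binding proteins tether that complex to fibrillin and fibronectin in the matrix. Heterodimers of alpha v grip an RGD motif in the propeptide and free or expose the growth factor, which then signals through its receptors and Smad proteins to raise collagen synthesis. In fibrotic skin, integrins that hold collagen and fibronectin also pass matrix tension into fibroblasts.

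The Celastrol group held 3 libraries, titled 2, 3 and 5, the Bleomycin group held 3, titled 2, 3 and 4, and the PBS group held 2, titled 2 and 3. All came from homogenized skin of male C57 BL/6 J mice that were obtained at 4 weeks of age, treated from 6 weeks and sampled at 21 days. Celastrol, a plant triterpenoid, was given every day by intraperitoneal injection at 1 or at 2 mg/kg. Bleomycin, a DNA-damaging drug used to model skin fibrosis, was injected under the skin at 0.1 units, and phosphate-buffered saline (PBS) was injected by the same route in a volume of 0.1 mL. Neither the dose of a single Celastrol mouse nor any bleomycin given to that group can be read from the labels. Nothing beyond separate titles says that the libraries of a group came from separate mice, so p-values measure the spread between libraries, which may be technical. The 3 comparisons share libraries pairwise and are not independent of each other.

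Values are the authors' normalized values, which are proportional to read counts after scaling by library. Estimated depth lay between 14900000 and 37100000 reads per library. Principal component 1 held 32.7% of the variance and placed Celastrol 2 at 237.5, with the other libraries between -57.3 and -3.63. Because skin was measured in bulk, fewer cells of a type and less RNA per cell cannot be told apart. The summed value of 10 dermal fibroblast markers lay between 19502 and 48755 in Celastrol libraries, between 22343 and 38487 in Bleomycin libraries and between 104431 and 110749 in PBS libraries, with no marker at 0. The 10 basal epidermis markers lay between 168339 and 226456 in Celastrol libraries, between 162617 and 244061 in Bleomycin libraries and between 151830 and 206011 in PBS libraries, again with no marker at 0. The 9 measured markers of wounded epidermis summed to 51042 to 97832 in Celastrol libraries, 18097 to 155459 in Bleomycin libraries and 2183 to 9318 in PBS libraries. The 10 skeletal muscle markers summed to 1225210 to 1875840 in Celastrol libraries, 769096 to 1051460 in Bleomycin libraries and 537999 to 543623 in PBS libraries.

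The 250 bases upstream of the RefSeq gene start are shown for Itgb5, Itga5 and Itga11, which shared their 2 highest libraries. They are also shown for Itgb1, which correlated negatively with each of those 3. They are RefSeq sequences on build GRCm38.p6, which held a window for 9 of the 10 members. The RefSeq starts of Itga5 and Itga11 differ from the gene coordinates given below, and the Itga11 window ends inside that gene's span. Capitals mark matches, on either strand, to a Smad box (CAGAC), a TEAD motif (GGAATG), an AP-1 motif (TGANTCA) and a GC box (GGGCGG). Itgb5 is read on the plus strand from chr16:33829415-33829664, Itga5 on the minus strand from chr15:103366792-103367041, Itga11 on the plus strand from chr9:62677605-62677854, and Itgb1 on the plus strand from chr8:128685404-128685653.
Itgb5: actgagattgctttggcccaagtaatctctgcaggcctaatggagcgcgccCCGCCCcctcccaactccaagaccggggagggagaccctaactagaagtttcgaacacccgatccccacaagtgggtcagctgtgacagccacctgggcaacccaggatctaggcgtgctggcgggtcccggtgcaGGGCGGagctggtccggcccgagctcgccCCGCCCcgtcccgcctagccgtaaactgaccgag
Itga5: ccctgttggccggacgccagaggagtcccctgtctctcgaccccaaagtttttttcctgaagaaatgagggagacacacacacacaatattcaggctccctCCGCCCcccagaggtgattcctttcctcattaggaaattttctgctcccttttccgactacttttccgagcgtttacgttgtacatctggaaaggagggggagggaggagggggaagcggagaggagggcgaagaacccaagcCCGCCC
Itga11: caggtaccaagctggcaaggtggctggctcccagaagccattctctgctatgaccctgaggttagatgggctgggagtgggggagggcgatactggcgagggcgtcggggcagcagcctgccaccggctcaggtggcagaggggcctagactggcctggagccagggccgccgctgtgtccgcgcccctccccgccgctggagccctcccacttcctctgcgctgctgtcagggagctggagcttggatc
Itgb1: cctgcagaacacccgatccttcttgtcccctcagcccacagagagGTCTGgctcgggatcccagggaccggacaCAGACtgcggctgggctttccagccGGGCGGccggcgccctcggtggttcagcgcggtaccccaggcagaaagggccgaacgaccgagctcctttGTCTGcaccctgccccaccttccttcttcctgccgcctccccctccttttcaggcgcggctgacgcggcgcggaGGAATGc
The Itgb5 window held 3 GC boxes and the Itga5 window 2, while the Itga11 window held none of the 4 motifs. Neither Itgb5, Itga5 nor Itga11 had a Smad box, a TEAD motif or an AP-1 motif in these windows. The Itgb1 window held 3 Smad boxes, 1 TEAD motif and 1 GC box. Among 32851 windows of the same length, 42.2% held a Smad box, 12.6% a TEAD motif, 6.75% an AP-1 motif and 32.7% a GC box. Matches are letters in a window, and no binding was measured. The windows were 65.2% G and C for Itgb5, 55.6% for Itga5, 68.4% for Itga11 and 68% for Itgb1.

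For Celastrol against Bleomycin, the log2 change of the members lay between -0.60 for Itga11 and 0.10 for Itgb5, and no library range was apart. Itgb3, Itgb5, Itga2 and Itga11 had lower means, and Itgb1, Itgb6 and Itgb8 higher means, in both treated groups than in PBS, while the mean of Itgav differed little between the 3 groups. No member passed the threshold, an adjusted p of 0.05 over all genes in limma, a linear model that pools the spread across genes. For Celastrol against Bleomycin, 0 of 10 members were called by limma, beside 0% of all genes tested (0 of 23185), and 0 members against 3.87% of genes had an unadjusted p under 0.05. For Celastrol against PBS, 0 of 10 members were called, beside 1.37% of genes (317, with 0.824% higher and 0.543% lower), and 1 member, Itgb3, against 12% of genes had an unadjusted p under 0.05. For Bleomycin against PBS, 0 of 10 members were called, beside 0.677% of genes (157, with 0.453% higher and 0.224% lower), and 0 members against 6.82% of genes had an unadjusted p under 0.05. Library ranges were apart for 0 members in Celastrol against Bleomycin, where 8.73% of genes were apart (4.13% higher, 4.59% lower). They were apart for 5 members in Celastrol against PBS (Itgb1 and Itgb6 higher, Itgb3, Itga2 and Itga11 lower), beside 26.9% of genes (13.2% higher, 13.7% lower), and the difference of these shares was not tested. They were apart for 2 members in Bleomycin against PBS (Itgb6 higher, Itgb3 lower), beside 23.6% of genes (12% higher, 11.6% lower), so the share of members was close to that of all genes there. The median member change was -0.03 for Celastrol against Bleomycin, -0.28 for Celastrol against PBS and 0.04 for Bleomycin against PBS, beside -0.04, -0.07 and 0.00 over all genes.

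Itgav (chr2:83724397-83806916, plus strand, mm10) encodes alpha v, the chain shared by the TGF-beta-activating heterodimers described here, and it had the smallest spread of the 10 members. Its values were 7349.8, 7620.0 and 7321 in Celastrol 2, 3 and 5, then 7303, 7989 and 6804 in Bleomycin 2, 3 and 4, and 6892 and 7801 in PBS 2 and 3. The 3 groups overlapped, and the highest library stood 1.17-fold above the lowest. Fitted with limma to log2(value + 1), and given with its standard error (SE), the change was 0.02 ± 0.14 for Celastrol against Bleomycin, 0.02 ± 0.15 for Celastrol against PBS and 0.00 ± 0.15 for Bleomycin against PBS. In the same order, the 95% intervals ran from -0.28 to 0.31, from -0.32 to 0.35 and from -0.33 to 0.34, so a 2-fold difference lay outside all 3. Exons of Itgav overlap those of an antisense transcript, Gm13684, whose values reached 19.4 at most.

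Itgb1 (chr8:128685654-128733200, plus strand) encodes beta 1, which pairs with alpha v and with each of the 4 other alpha chains considered here. It had 15795, 18175 and 15124 in Celastrol 2, 3 and 5, then 13455, 18556 and 15779.9 in Bleomycin 2, 3 and 4, and 11866 and 13888 in PBS 2 and 3. All Celastrol libraries lay above both PBS libraries, and the Bleomycin range overlapped both other groups, with Bleomycin 2 below PBS 3. The log2 change was 0.35 ± 0.18 for Celastrol against PBS (adjusted p = 0.504 in limma), 0.30 ± 0.18 for Bleomycin against PBS (adjusted p = 1) and 0.05 ± 0.16 for Celastrol against Bleomycin (adjusted p = 0.996). For Bleomycin against PBS it was 0.19 without PBS 2 and 0.18 without Bleomycin 3.

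Itgb3 (chr11:104608000-104670476, plus strand) encodes beta 3, which forms the vitronectin receptor with alpha v and the fibrinogen receptor of platelets with another alpha chain. It had 233, 234 and 225 in Celastrol 2, 3 and 5, then 294, 239 and 210.2 in Bleomycin 2, 3 and 4, and 497 and 311 in PBS 2 and 3. Both PBS libraries lay above all 6 others, with the gap between PBS 3 and Bleomycin 2 small. The mean was 231 ± 4.88 in Celastrol and 248 ± 42.3 in Bleomycin libraries (SD, n = 3 each), against 404 ± 132 in PBS libraries (SD, n = 2). For Celastrol against PBS the log2 change was -0.77 ± 0.33, with a 95% interval from -1.50 to -0.04, an unadjusted p of 0.0414 and an adjusted p of 0.387 over all genes tested in limma. For Bleomycin against PBS it was -0.68 ± 0.33 (adjusted p = 0.815), and for Celastrol against Bleomycin -0.09 ± 0.30 (adjusted p = 0.996). Neither difference from PBS passed the adjusted threshold of 0.05. Without PBS 2 the change was -0.43 for Celastrol against PBS and -0.34 for Bleomycin against PBS, and without PBS 3 it was -1.10 and -1.02 for the same comparisons. Of 10 platelet markers, 5 were in the table. They summed to 320 to 401 in Celastrol, 291 to 348 in Bleomycin and 303 to 307 in PBS libraries, and Gp9 was listed at 0 in all but Celastrol 2. Summed fibroblast markers were highest in the same 2 PBS libraries as Itgb3, and their part in its values was not tested.

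Itgb5 (chr16:33829665-33949338, plus strand) encodes beta 5, whose heterodimer with alpha v releases TGF-beta when fibroblasts contract. It had 642, 417 and 610.5 in Celastrol 2, 3 and 5, then 1007, 349 and 377 in Bleomycin 2, 3 and 4, and 1544 and 543 in PBS 2 and 3. Bleomycin 2 and PBS 2 were the 2 highest libraries and all groups overlapped. Within a group the highest library exceeded the lowest 1.54-fold in Celastrol, 2.88-fold in Bleomycin and 2.84-fold in PBS. In limma its log2 change was -0.74 ± 0.51 for Celastrol against PBS, -0.84 ± 0.51 for Bleomycin against PBS and 0.10 ± 0.46 for Celastrol against Bleomycin. PBS 2 decided the changes from PBS: without it, the change was 0.01 for Celastrol against PBS and -0.09 for Bleomycin against PBS, and without PBS 3 it was -1.50 for Celastrol and -1.60 for Bleomycin. Without Bleomycin 2 the change for Bleomycin against PBS was -1.33.

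Itgb6 (chr2:60598292-60722643, minus strand) encodes beta 6, an epithelial subunit that is induced in wounded epidermis and forms a potent TGF-beta activator with alpha v. It had 452, 535 and 799 in Celastrol 2, 3 and 5, then 496, 800.3 and 446 in Bleomycin 2, 3 and 4, and 349 and 431 in PBS 2 and 3. All 6 libraries of the treated groups lay above both PBS libraries, with the gap between Bleomycin 4 and PBS 3 small. The mean was 595 ± 181 in Celastrol and 581 ± 192 in Bleomycin libraries (SD, n = 3 each), against 390.1 ± 57.5 in PBS libraries (SD, n = 2). The log2 change was 0.57 ± 0.33 for Celastrol against PBS (adjusted p = 0.549), 0.53 ± 0.33 for Bleomycin against PBS (adjusted p = 1) and 0.04 ± 0.30 for Celastrol against Bleomycin (adjusted p = 0.997), all in limma. The change against PBS was 0.34 for Celastrol without Celastrol 5 and 0.28 for Bleomycin without Bleomycin 3. Leaving out the 3 shallowest libraries (Celastrol 2, Celastrol 3 and Bleomycin 3) kept only Celastrol 5, the highest Celastrol library for Itgb6, in its group. The change was then 1.04 for Celastrol against PBS and 0.76 for Celastrol against Bleomycin, each resting on that 1 Celastrol library. The summed markers of wounded epidermis were likewise higher in all 6 of those libraries than in PBS. Bleomycin 3 was the highest library on both measures, but Celastrol 5, next for Itgb6, had the lowest marker sum of the Celastrol libraries. Their part in the Itgb6 values was not tested.

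Itgb8 (chr12:119158022-119238802, minus strand) encodes beta 8, which with alpha v exposes active TGF-beta without pulling on it. It had 2794, 2227 and 1945 in Celastrol 2, 3 and 5, then 1726, 3027 and 2237 in Bleomycin 2, 3 and 4, and 1499 and 2163 in PBS 2 and 3. The groups overlapped, and the log2 change was 0.35 ± 0.27 for Celastrol against PBS, 0.33 ± 0.27 for Bleomycin against PBS and 0.02 ± 0.24 for Celastrol against Bleomycin. The changes from PBS depended on single libraries. Without PBS 2 they were 0.086 for Celastrol and 0.069 for Bleomycin, and without PBS 3 they were 0.62 for Celastrol and 0.60 for Bleomycin. The Celastrol change was 0.21 without Celastrol 2, and the Bleomycin change was 0.53 without Bleomycin 2 and 0.13 without Bleomycin 3.

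**Figure D1:**
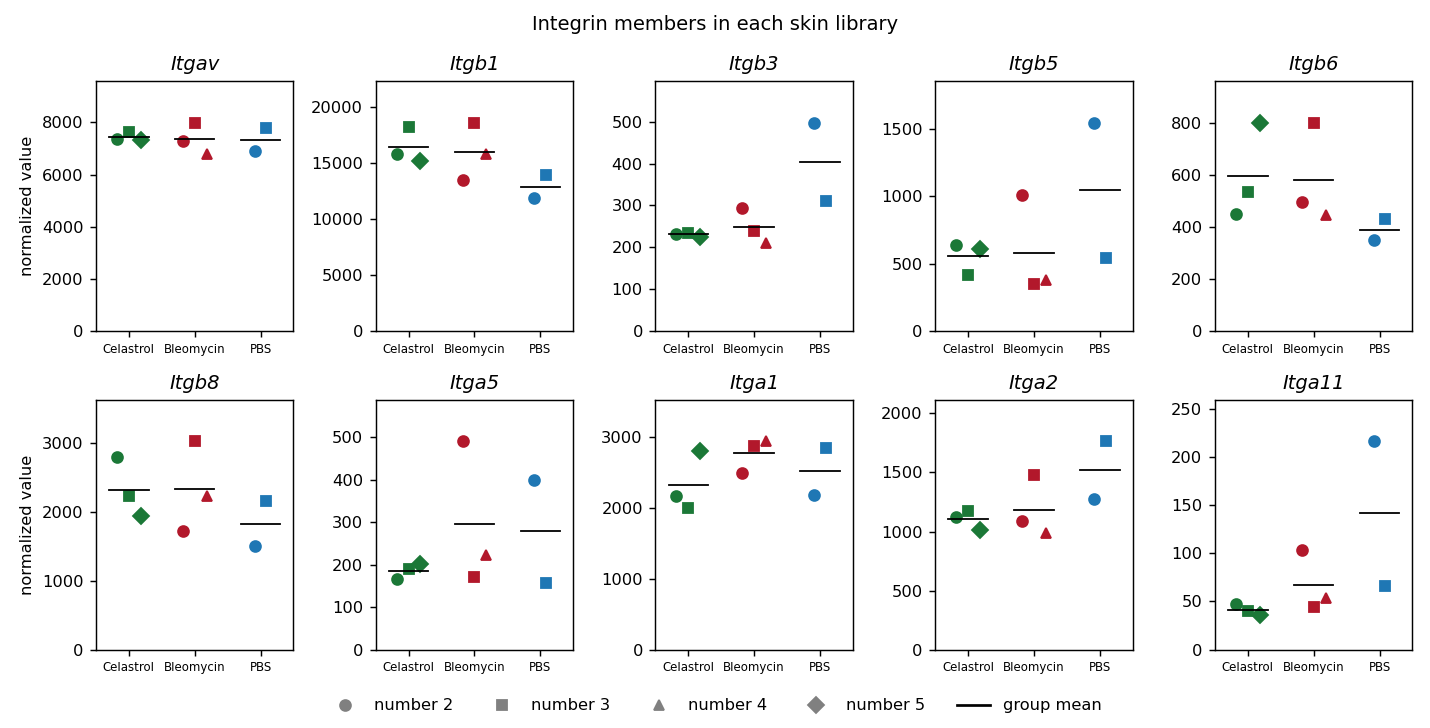
Normalized value (vertical axis, linear from 0) of each member in every library, with 3 Celastrol, 3 Bleomycin and 2 PBS libraries from left to right, marker shape for the number in the library title and a line at the group mean. Itgav lies between 6804 and 7989 throughout, Itgb3 is highest in the 2 PBS libraries, and the 2 highest values of Itgb5, Itga5 and Itga11 are those of Bleomycin 2 and PBS 2.

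Per kilobase of exon, beta 1 made up most of the summed level of the beta partners of alpha v: 89.0 ± 1.82% in Celastrol and 88.5 ± 2.67% in Bleomycin libraries (SD, n = 3 each), against 84.3 ± 5.33% in PBS libraries (SD, n = 2). Since beta 1 also serves many other alpha chains, the remaining 4 partners were set against each other. Itgb8 took 42.9 ± 6.63% of their sum in Celastrol, 43.3 ± 13.3% in Bleomycin and 30.8 ± 16.3% in PBS libraries. Itgb5 took 31.7 ± 4.08% in Celastrol, 31.8 ± 16.8% in Bleomycin and 47.4 ± 20.3% in PBS libraries. Its share was 50.7% in Bleomycin 2 and 61.8% in PBS 2, above all other libraries, and the groups overlapped. Itgb6 took 17.2 ± 5.35% in Celastrol, 16.4 ± 4.56% in Bleomycin and 10.1 ± 4.34% in PBS libraries, and these ranges overlapped. Itgb3 was the partner whose share separated PBS from the rest, at 7.37% to 9.17% in Celastrol and 7.72% to 8.90% in Bleomycin libraries, against 11.4% to 12.0% in PBS libraries. Shares that sum to a whole move against each other, and this one was not tested.

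**Figure D2:**
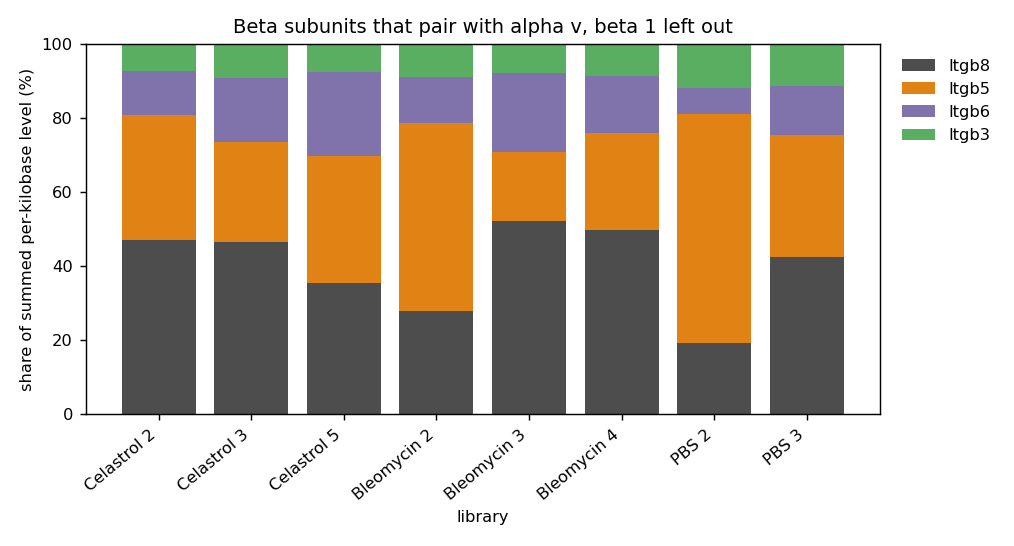
Share in percent (vertical axis) of the summed level per kilobase of exon taken by Itgb8, Itgb5, Itgb6 and Itgb3 in each library (horizontal axis), beta 1 left out. Itgb5 takes 50.7% in Bleomycin 2 and 61.8% in PBS 2, and Itgb8 has the largest share in the other libraries.

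Among the alpha chains that pair with beta 1, Itga5 (chr15:103344286-103366763, minus strand) encodes the fibronectin receptor chain, which assembles fibronectin fibrils. It had 166, 189 and 201 in Celastrol 2, 3 and 5, then 490.3, 171 and 223 in Bleomycin 2, 3 and 4, and 399.9 and 158 in PBS 2 and 3. Bleomycin 2 and PBS 2 stood apart from the other 6 libraries, and the groups overlapped. The log2 change was -0.52 ± 0.46 for Celastrol against Bleomycin, -0.44 ± 0.52 for Celastrol against PBS and 0.08 ± 0.52 for Bleomycin against PBS. Its sign against PBS turned on a single library: without PBS 2 it was 0.22 for Celastrol and 0.75 for Bleomycin, and without PBS 3 it was -1.11 for Celastrol and -0.59 for Bleomycin. The change for Celastrol against Bleomycin was -0.08 without Bleomycin 2 and -0.84 without Bleomycin 3.

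Itga1 (chr13:114953096-115101964, minus strand) encodes the chain of a receptor for type IV and other collagens that lowers collagen synthesis in fibroblasts. It had 2166, 1991 and 2799 in Celastrol 2, 3 and 5, then 2493, 2865 and 2934 in Bleomycin 2, 3 and 4, and 2175 and 2843 in PBS 2 and 3. The groups overlapped. For Celastrol against Bleomycin the log2 change was -0.27 ± 0.18, and its unadjusted p of 0.172 in limma was the smallest of any member in that comparison (adjusted p = 0.975). That change was -0.16 without Celastrol 3 and -0.41 without Celastrol 5. It was -0.12 ± 0.20 for Celastrol against PBS and 0.15 ± 0.20 for Bleomycin against PBS. Exons of Itga1 overlap those of Gm49395 on the same strand, which was listed at 9.93 to 131.

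Itga2 (chr13:114833081-114932100, minus strand) encodes the chain of a receptor for fibrillar collagen that keratinocytes and platelets carry. It had 1126, 1176 and 1013 in Celastrol 2, 3 and 5, then 1089, 1475 and 988 in Bleomycin 2, 3 and 4, and 1278 and 1764 in PBS 2 and 3. All Celastrol libraries lay below both PBS libraries, while Bleomycin 3 overlapped PBS. The log2 change was -0.44 ± 0.23 for Celastrol against PBS (adjusted p = 0.497), -0.36 ± 0.23 for Bleomycin against PBS (adjusted p = 1) and -0.08 ± 0.21 for Celastrol against Bleomycin (adjusted p = 0.993), all in limma. Without PBS 3 the changes from PBS were -0.21 for Celastrol and -0.13 for Bleomycin, and without PBS 2 they were -0.68 for Celastrol and -0.60 for Bleomycin.

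Itga11 (chr9:62677826-62783982, plus strand) encodes the fibroblast receptor for type I collagen and was the scarcest and most variable member. It had 47.6, 40.5 and 36 in Celastrol 2, 3 and 5, then 103, 44.4 and 53.9 in Bleomycin 2, 3 and 4, and 216 and 66.5 in PBS 2 and 3. Every Celastrol library lay below both PBS libraries, Bleomycin overlapped both other groups, and PBS 2 stood 3.25-fold above PBS 3. These values rest on an estimated 24 to 51 reads in Celastrol, 34 to 150 in Bleomycin and 60 to 311 in PBS libraries. The log2 change was -1.52 ± 0.70 for Celastrol against PBS, with a 95% interval from -3.08 to 0.03 and an adjusted p of 0.43 in limma. It was -0.92 ± 0.70 for Bleomycin against PBS (adjusted p = 1) and -0.60 ± 0.63 for Celastrol against Bleomycin (adjusted p = 0.975). The size depended on PBS 2: without PBS 2 the changes from PBS were -0.68 for Celastrol and -0.08 for Bleomycin, and without PBS 3 they were -2.37 for Celastrol and -1.77 for Bleomycin. Without Bleomycin 2 the change for Celastrol against Bleomycin was -0.25. Summed fibroblast markers were also lower in the Celastrol and Bleomycin libraries than in PBS, and their part in the Itga11 values was not tested.

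A difference that misses the threshold is not shown to be absent, and the 95% intervals give the sizes left. They lay inside a 2-fold change in either direction for 7 members in Celastrol against Bleomycin, for 5 in Celastrol against PBS and for 5 in Bleomycin against PBS. For Celastrol against Bleomycin, the widest belonged to Itga11, from -1.99 to 0.79, Itgb5, from -0.92 to 1.12, and Itga5, from -1.54 to 0.49. The 5 positive changes in that comparison, those of Itgav, Itgb1, Itgb5, Itgb6 and Itgb8, were all negative when libraries were rescaled to equal sums, which moved the median of all genes by -0.12. Celastrol 2 was the library set apart on component 1. Without it, the Celastrol against PBS changes were 0.03 for Itgav, 0.37 for Itgb1, -0.77 for Itgb3, -0.86 for Itgb5, 0.75 for Itgb6, 0.21 for Itgb8, -0.37 for Itga5, -0.08 for Itga1, -0.46 for Itga2 and -1.63 for Itga11, and none was called.

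**Figure D3:**
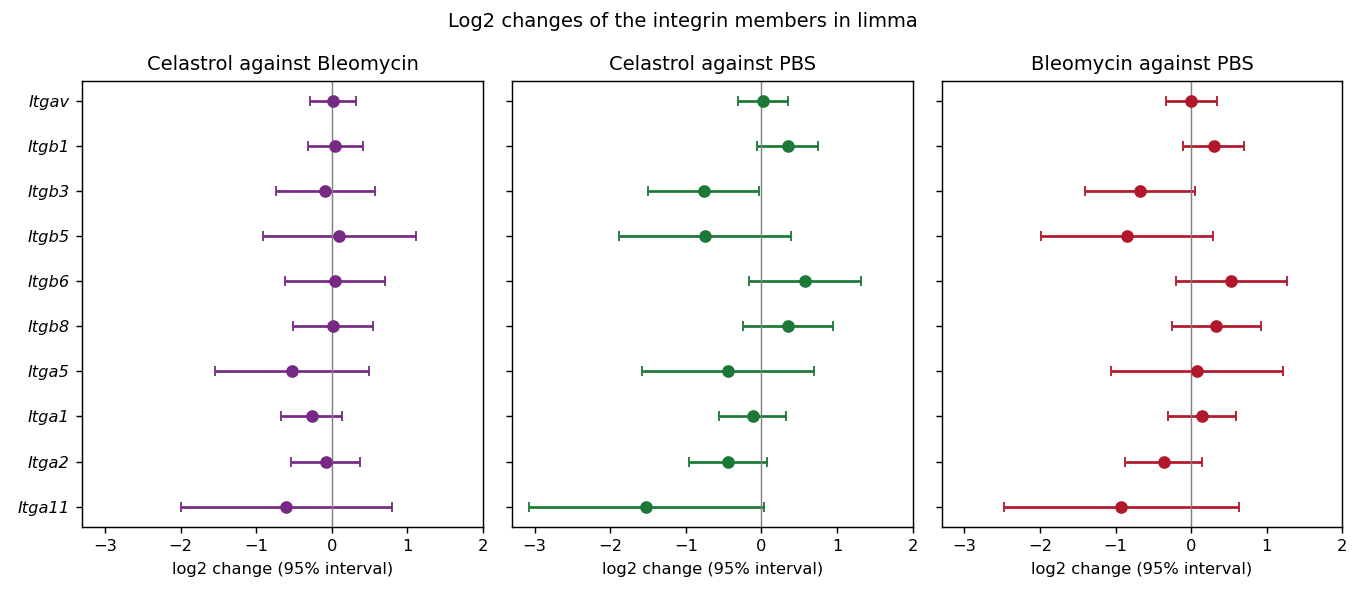
Log2 change of each member (horizontal axis, point) with its 95% interval from limma (bar) for Celastrol against Bleomycin (n = 3 and 3), Celastrol against PBS (n = 3 and 2) and Bleomycin against PBS (n = 3 and 2). All intervals include 0 except that of Itgb3 for Celastrol against PBS, from -1.50 to -0.04, and those of Itgav are the narrowest.

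By level per kilobase of exon over all libraries, Itgb1 came highest at 3756, then Itgav at 687, and neither range touched the next. Below them the order was Itgb8 at 199, Itgb5 at 193, Itga2 at 174, Itga1 at 136, Itgb6 at 75.7, Itga5 at 50.6, Itgb3 at 47.5 and Itga11 at 14.8. Each of these neighbours overlapped in range, though Itga1 exceeded Itgb6, and Itgb3 exceeded Itga11, in 8 of 8 libraries. Among all 26 integrin subunits of the table, Itgb1 ranked 1 and Itgav 3 per kilobase, with the laminin receptor chain Itga6 between them at 1298, and Itga11 ranked 23.

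Several members differed widely between libraries of 1 group, and some did so together. Itgb5, Itga5 and Itga11 had their 2 highest values in the same libraries: Bleomycin 2 deviated from the gene's mean log2 value by 0.73, 1.10 and 0.70 for these 3 genes in that order, and PBS 2 by 1.35, 0.80 and 1.76. Itgb3 shared the high value of PBS 2, at 0.88, but was next highest in PBS 3, at 0.20, and stood at 0.12 in Bleomycin 2. Over the 8 libraries, which share depth and composition across genes, the correlation was r = 0.85 for Itgb5 with Itga11 and r = 0.77 for Itgb5 with Itga5. For Itga5 with Itga11 it was r = 0.78. Rank correlations within these 3 genes were lower: 0.55 for Itgb5 with Itga11, 0.43 for Itgb5 with Itga5 and 0.38 for Itga5 with Itga11. Itgb3 had r = 0.93 with Itga11, r = 0.83 with Itgb5 and r = 0.59 with Itga5. Its rank correlations with them were 0.67, 0.45 and 0.048 in that order. Itgb1 and Itgb8 varied with each other (r = 0.83, n = 8) and against this set, with r = -0.89 for Itgb1 with Itgb5. These correlations are descriptions of 8 libraries from 3 groups.

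The 3 members that shared their 2 highest libraries were also the 3 richest in G and C, and Itgb3 came next. The longest transcript was 57.3% G and C for Itga5, 57.0% for Itgb5, 55.5% for Itga11 and 52.1% for Itgb3, placing them at the 91.7, 90.8, 86.0 and 71.8 percentiles of genes tested, while the other 6 members lay between 40.4% for Itgb8 and 44.8% for Itgb1. The same libraries were high for GC-rich genes at large. This was read from the 16208 tested genes with a known GC content and a mean value of at least 50. In the 10% of them with the highest GC content, the median deviation was 0.67 in Bleomycin 2 and 0.68 in PBS 2. It lay between -0.30 and 0.01 in the other 6 libraries. In the 10% with the lowest GC content it was -0.19 in Bleomycin 2 and -0.19 in PBS 2. When each library's median deviation was removed within bins of GC content, an alternative chosen after seeing these values, the SE for Bleomycin against PBS was 0.29 for Itgb5, 0.35 for Itga5 and 0.61 for Itga11, against 0.51, 0.52 and 0.70 without it. The log2 change for Celastrol against PBS was then -0.46 for Itgb5, -0.16 for Itga5, -1.37 for Itga11 and -0.73 for Itgb3, and that for Bleomycin against PBS was -0.76, 0.17, -0.89 and -0.65 for the same genes. No member was called under it in any comparison. What set Bleomycin 2 and PBS 2 apart was not tested.

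**Figure D4:**
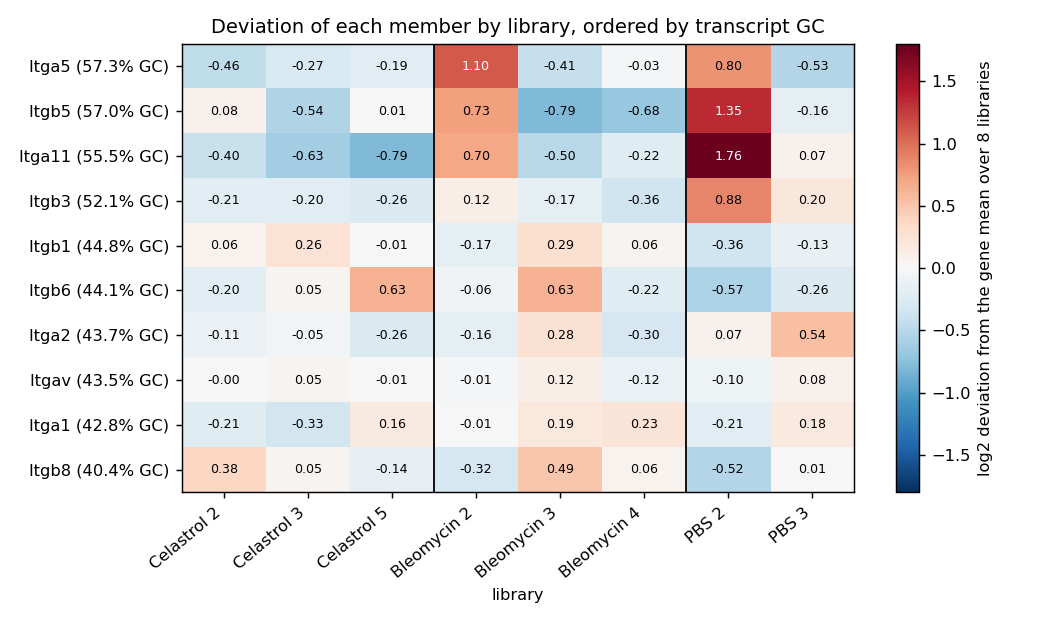
Deviation of each member from its own mean log2 value over the 8 libraries (colour and printed value), with members from the highest transcript GC content at the top to the lowest at the bottom and libraries in columns. The top 4 members are above their mean in Bleomycin 2, where Itga5 reaches 1.10, and in PBS 2, where Itga11 reaches 1.76, while Itgav stays between -0.12 and 0.12.

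**Figure D5:**
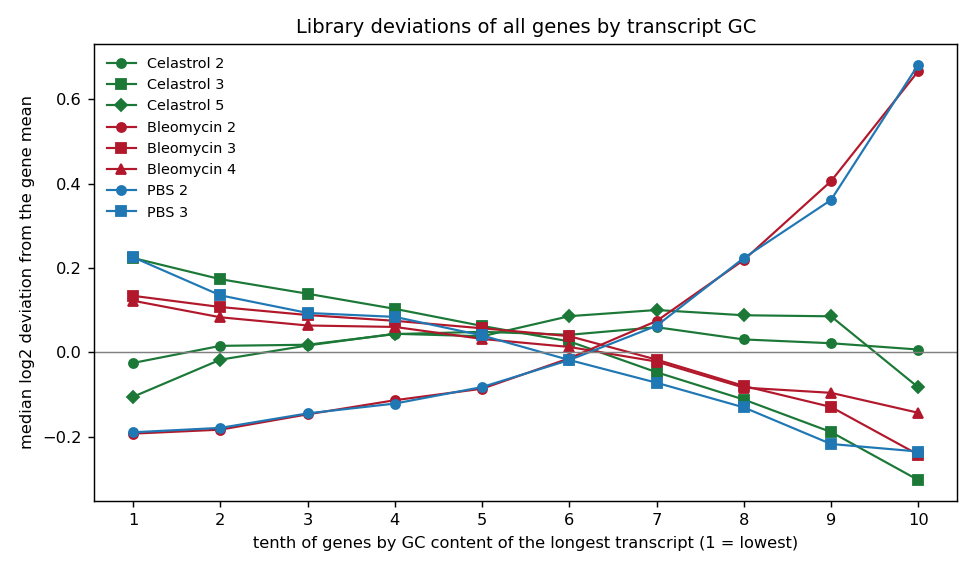
Median log2 deviation of genes from their own mean (vertical axis), with a line for each library. The horizontal axis holds 10 equal bins by GC content of the longest transcript, low to high. The bins hold 16208 tested genes with a known GC content and a mean value of at least 50. Bleomycin 2 climbs to 0.67 and PBS 2 to 0.68 in the bin highest in GC, while the other 6 libraries end between -0.30 and 0.01.

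For each member, genes among the 3 most like it over the 8 libraries were taken from 13380 genes by Pearson correlation of log2 values, as a description. Itgb5 was most like Zfp592 (r = 0.996), Psapl1 and Tmbim6, Itga5 most like Ppp1r9b (r = 0.99), Inppl1 and Tmem184a, and Itga11 most like Zfp574 (r = 0.98), Kirrel and Gpr107. Itgb3 was most like the microRNA locus Mir6236 (r = 0.97), Efs and Crispld2. Itgb1 was most like Rbmxl1 (r = 0.97), Dync1i2 and Skap2, and Itgb8 most like Strn (r = 0.99), Zfp493 and Nsun3. Itgb6 was most like Ippk (r = 0.97) and Haus7. Itgav was most like Chodl (r = 0.93), Lrch1 and Cdc25a, Itga1 most like Ate1 (r = 0.96), Olfr250 and Lrrc8c, and Itga2 most like Ldlrad4 (r = 0.96), Marveld2 and Msl2. Against summed cell type markers, the highest correlations were those of Itga5 with endothelium (r = 0.94) and Itgb5 with nerve and glia (r = 0.87). Next came Itgb3 with dermal fibroblast markers (r = 0.80), Itgav with T and NK cells (r = 0.79) and Itga5 with nerve and glia (r = 0.76). Itga2 had r = 0.75 with hair follicle and Itgb1 r = 0.75 with wounded epidermis markers. Of 10 hair follicle markers only 6 were in the table, and 1 to 3 of them were at 0 in each library. Lgr5 alone gave 996 of a hair follicle sum of 1185 in PBS 3, and 91.6 of 331 in Celastrol 5. Itgb1 had r = 0.74 with mast cell and Itgb6 r = 0.70 with macrophage markers. Itga11 had r = 0.68 with nerve and glia, r = 0.67 with dermal fibroblast and r = 0.61 with endothelium markers, with rank correlations of 0.57, 0.64 and 0.36. The most negative were Itgb1 with nerve and glia and Itga2 with smooth muscle and pericyte markers, at r = -0.77 each. Itga2 had r = -0.76 with the platelet markers in the table. All of these rest on n = 8 libraries, and the endothelium and nerve sums, like Itga5 and Itgb5, were highest in Bleomycin 2 and PBS 2.

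The rest of the integrin family was measured for 16 of 17 listed subunits, and limma called 0 of the 16 in each comparison. At an unadjusted p under 0.05 there were 0 for Celastrol against Bleomycin, 1 for Celastrol against PBS and 2 for Bleomycin against PBS. Beside these, the shares of all genes were 3.87%, 12% and 6.82%. Of these 16, 1 was called higher for Bleomycin against PBS with a pseudocount of 10, library weights, Celastrol 2 left out or GC content centred. In that comparison, library weights called 711 genes and GC centring 285 over the whole table, against 157 in the main fit. With library weights, 1 of the 16 was also called higher for Celastrol against PBS. The clearest difference was Itgam, the alpha chain of the myeloid complement receptor. It had 1472, 2284 and 2373 in Celastrol 2, 3 and 5, then 2062, 2705 and 2303 in Bleomycin 2, 3 and 4, and 1169 and 807 in PBS 2 and 3. All 6 treated libraries lay above PBS, and the log2 change was 1.04 ± 0.26 for Celastrol against PBS (adjusted p = 0.0916) and 1.27 ± 0.26 for Bleomycin against PBS (adjusted p = 0.0616), neither past the threshold in this limma fit. Its partner Itgb2 had log2 changes of 0.57 ± 0.37 and 0.94 ± 0.37 in the same comparisons and did not pass it. The smallest p for Celastrol against Bleomycin was that of the dendritic cell subunit Itgax, at -0.93 ± 0.45 (adjusted p = 0.975).

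Beyond the receptors, the latent complex that alpha v integrins act on had 1 called gene of 11 in each comparison with PBS, where 1.37% of all genes were called for Celastrol and 0.677% for Bleomycin. Fbn1, the fibrillin to which latent TGF-beta binding proteins are anchored, had 3734, 5561 and 3325 in Celastrol 2, 3 and 5, then 6148, 3971 and 2796 in Bleomycin 2, 3 and 4, and 19806 and 12462 in PBS 2 and 3. It was lower in all treated libraries, with a log2 change of -1.94 ± 0.33 for Celastrol against PBS (adjusted p = 0.0221) and -1.94 ± 0.33 for Bleomycin against PBS (adjusted p = 0.0317) in limma. Neither call was made without PBS 2, PBS 3, Celastrol 2 or Celastrol 5, and that for Bleomycin also not without Bleomycin 3 or Bleomycin 4. Neither was made without the mean-variance trend of the fit or without the 3 shallowest libraries together, and that for Bleomycin also not when the 2 groups compared were fitted alone. The list's median change was -0.25 for Celastrol against Bleomycin, -0.90 for Celastrol against PBS and -0.64 for Bleomycin against PBS. Against PBS, 7 of the 11 for Celastrol and 4 for Bleomycin had an unadjusted p under 0.05 in limma, beside 12% and 6.82% of all genes. The TGF-beta genes themselves were not called: Tgfb2 had a log2 change of -0.90 ± 0.37 for Celastrol against PBS and -1.23 ± 0.37 for Bleomycin against PBS, and Tgfb1 had -1.07 ± 0.48 and -0.05 ± 0.48. For Celastrol against Bleomycin, 0 of 11 were called and 3 had an unadjusted p under 0.05, beside 3.87% of all genes: Ltbp3 at -0.88 ± 0.32, Tgfb1 at -1.02 ± 0.43 and Ltbp4 at -1.44 ± 0.65. Ltbp3 and Ltbp4 transcripts are 58.3% and 62.2% G and C, and both were highest among non-PBS libraries in Bleomycin 2. The part of GC content in their changes was not tested. Tgfb1 had 90.6, 187 and 288 in Celastrol 2, 3 and 5, then 468, 263 and 332 in Bleomycin 2, 3 and 4, so Celastrol 2 was lowest and the groups overlapped.

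Downstream, none of 9 TGF-beta receptor and Smad genes was called in any comparison. An unadjusted p under 0.05 was found for 0, 1 and 1 in Celastrol against Bleomycin, Celastrol against PBS and Bleomycin against PBS. The shares of all genes were 3.87%, 12% and 6.82% in that order. Of these 9, the co-receptor Tgfbr3 had the smallest p against PBS, at -0.87 ± 0.36 for Celastrol and -0.85 ± 0.36 for Bleomycin. None of 15 TGF-beta target genes was called by limma either, and the counts with an unadjusted p under 0.05 were 0, 7 and 5. These stand beside the same 3.87%, 12% and 6.82% of all genes, and the difference was not tested. For Bleomycin against PBS, 1 of the 15 was called higher with library weights, without PBS 2 or with GC content centred. Over the whole table these settings called 711, 70 and 285 genes in that order, against 157 in the main fit. Postn, a matrix protein that binds alpha v integrins, had a log2 change of 0.73 ± 0.22 and the contractile gene Acta2 had 0.67 ± 0.23 for Celastrol against PBS, and neither passed the threshold. The median change of the targets was -0.03, 0.03 and 0.10 for Celastrol against Bleomycin, Celastrol against PBS and Bleomycin against PBS.

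The cytoplasmic activators and linkers that couple integrins to actin held 24 genes, and limma called 0 in each comparison. Those at an unadjusted p under 0.05 numbered 2, 4 and 0 for Celastrol against Bleomycin, Celastrol against PBS and Bleomycin against PBS. Over all genes the shares were 3.87%, 12% and 6.82% in that order. Tln2, a talin that switches integrins on, had a log2 change of 0.69 ± 0.20 for Celastrol against PBS (adjusted p = 0.169). Zyx, which gathers at adhesions under tension, had a log2 change of -0.98 ± 0.41 for Celastrol against Bleomycin (adjusted p = 0.975) and of -1.12 ± 0.45 for Celastrol against PBS (adjusted p = 0.349).

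Some matrix ligands of these receptors did pass the test. Of 18 ligand genes, limma called 4 for Celastrol against PBS (1 higher, 3 lower), 2 for Bleomycin against PBS (2 lower) and 0 for Celastrol against Bleomycin, where 1 had an unadjusted p under 0.05. The share of all genes called was 1.37% for Celastrol against PBS and 0.677% for Bleomycin against PBS. An unadjusted p under 0.05 in limma was found for 11 ligands in Celastrol against PBS and 10 in Bleomycin against PBS. The shares of all genes at that level were 12% and 6.82%, and 3.87% for Celastrol against Bleomycin. Col1a2, a chain of the type I collagen bound by Itga11 and Itga2 receptors, had 4139.5, 11689 and 3682 in Celastrol 2, 3 and 5, then 23796, 4460.0 and 3293 in Bleomycin 2, 3 and 4, and 238632 and 100851 in PBS 2 and 3. It was lower in every treated library, with a log2 change of -4.78 ± 0.76 for Celastrol against PBS (adjusted p = 0.0167) and -4.46 ± 0.76 for Bleomycin against PBS (adjusted p = 0.031). Col3a1, the type III collagen chain, fell, with a log2 change of -3.65 ± 0.58 for Celastrol against PBS (adjusted p = 0.0167) and of -3.59 ± 0.58 for Bleomycin against PBS (adjusted p = 0.0274). Col1a1 fell by 5.48 ± 1.06 for Celastrol against PBS (adjusted p = 0.0367), and its change of -4.91 ± 1.06 for Bleomycin against PBS did not pass (adjusted p = 0.079). Spp1, or osteopontin, an RGD ligand of alpha v integrins, had 396, 403 and 657 in Celastrol 2, 3 and 5, then 366, 644 and 298 in Bleomycin 2, 3 and 4, and 122 and 36.4 in PBS 2 and 3. It rose by 2.80 ± 0.52 for Celastrol against PBS (adjusted p = 0.0323), and its change of 2.61 ± 0.52 for Bleomycin against PBS did not pass (adjusted p = 0.0616). The collagen calls against PBS were lost when PBS 2 or PBS 3 was left out, and so were those for Celastrol without Celastrol 2 or Celastrol 5 and those for Bleomycin without Bleomycin 3, Bleomycin 4 or Celastrol 5, while 1 of those for Bleomycin remained without Celastrol 2. Without the mean-variance trend or without the 3 shallowest libraries together, 0 ligands were called against PBS in either comparison, and for Bleomycin also 0 when the 2 groups compared were fitted alone. Library weights gave 6 ligands for Bleomycin against PBS and GC centring gave 5. Over the whole table these settings called 711 and 285 genes, against 157 in the main fit. The Spp1 call was lost without PBS 3, Celastrol 2 or Celastrol 5. Fibroblast markers were lower alongside the collagens, with 10 of 10 below PBS and 5 called lower for Celastrol and 5 for Bleomycin. Col6a1 is on both the marker list and the ligand list, so these lists are not fully separate. The part of the fibroblast markers in the ligand changes was not tested.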

How the data were processed

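RNA sequencing with a total RNA library kit gave 8 libraries. The deposited signal per gene is a normalized value on a linear scale: the authors scaled counts by DESeq2 poscounts size factors, per the deposited table's name. Partek 10.0.22, STAR 2.7.3a, DESeq2 and mm10 are named, per the submitters' processing notes, while annotation, filters and use of strand are not given in the sources used here. Raw counts could not be recovered, since 58.9% to 67.6% of values below 1000 reads lay within 0.03 of a whole read, so depth is an estimate.

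limma 3.58.1 in R 4.3.3 (trended eBayes) was fitted to log2(value + 1) of 23185 genes with at least 10 in at least 2 libraries, removing 1427. All 8 libraries shared 1 fit without covariates, and two-sided p-values were adjusted over all genes by Benjamini-Hochberg. Levels per kilobase used union exon lengths and GC content the longest transcript of GENCODE M21, to which 10 of 10 members matched. The procedure was tested on simulated data.

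The members and lists were chosen with earlier results of these data known. All members are named, and of 6 other lists some of the 4 genes with the smallest p per comparison; of the matrix and latent-complex lists, every gene called. Marker lists were summed per library. Some results that the rule would name are not reported here. Alternatives covered scaling, pseudocount, filter (reapplied to the libraries of each fit), trend, weights, libraries fitted, a replicate block and GC content.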

Additional observations from a re-analysis of the deposited data

How the results depend on the processing

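In limma, 0 of 10 members were called in each comparison under every alternative run, including leaving out each library in turn. The number of genes called over the whole table moved more. For Bleomycin against PBS it was 157, against 711 with library weights, 285 with GC content centred, 17 with the replicate block, 7 without the mean-variance trend and 0 without the 3 shallowest libraries (Celastrol 2, Celastrol 3 and Bleomycin 3) together. For Celastrol against PBS it was 317, against 512 with GC content centred, 41 with the replicate block and 19 without the trend. For Celastrol against Bleomycin it was 0, and 2 without the trend. Title numbers 4 and 5 each belong to a single library, so the replicate block fit rests on the libraries titled 2 and 3 of each group. The fit without the 3 shallowest libraries keeps Celastrol 5 alone in its group, with Bleomycin 2 and 4 and PBS 2 and 3. With each library left out in turn, the counts ran from 16 to 229 for Bleomycin against PBS, from 38 to 418 for Celastrol against PBS and from 0 to 1 for Celastrol against Bleomycin. With the replicate block, 0 of the 11 latent-complex genes and 0 of the 18 ligands were called against PBS in either comparison. Title numbers were not shown to pair libraries. Deviations of same-numbered libraries correlated between -0.0049 (Celastrol 2 with Bleomycin 2) and 0.203 (Bleomycin 2 with PBS 2). Those of differently numbered libraries correlated between -0.203 (Bleomycin 2 with PBS 3) and 0.123 (Celastrol 5 with PBS 2). Deviations from the mean of 2 PBS libraries mirror each other, so these values cannot decide whether libraries were paired.

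The sign of several uncalled changes close to 0 turned, and the cause was not tested. Rescaling to equal sums moved the median of all genes by -0.12 for Celastrol against Bleomycin and -0.10 for Celastrol against PBS. It gave, for Celastrol against Bleomycin, -0.11 for Itgav, -0.076 for Itgb1, -0.022 for Itgb5, -0.081 for Itgb6 and -0.11 for Itgb8, and for Celastrol against PBS -0.088 for Itgav. Rescaling to the upper quartile gave -0.0084 for Itgav and -0.0071 for Itgb8 in Celastrol against Bleomycin. Rescaling by the median log ratio gave, for Itgav, -0.0043 in Celastrol against PBS and -0.0046 in Bleomycin against PBS. The replicate block gave -0.030 for Itgav, -0.20 for Itgb5 and -0.36 for Itgb6 in Celastrol against Bleomycin. Library weights gave 0.063 for Itgb3, 0.067 for Itga2 and -0.041 for Itgb8 in Celastrol against Bleomycin, and -0.077 for Itgav and -0.089 for Itga5 in Bleomycin against PBS. GC centring gave -0.034 for Itgav, -0.0053 for Itgb1, -0.011 for Itgb6 and -0.038 for Itgb8 in Celastrol against Bleomycin, and for Itgav -0.060 in Celastrol against PBS and -0.026 in Bleomycin against PBS. Without the 3 shallowest libraries, Itgb5 was at -0.013, Itgb8 at -0.014 and Itga1 at 0.049 in Celastrol against Bleomycin, Itgav at -0.0023 and Itga1 at 0.17 in Celastrol against PBS, and Itgav at -0.057 in Bleomycin against PBS.

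With each library left out in turn, changes crossed 0 for Itgav (-0.040 to 0.076), Itgb1 (-0.069 to 0.16), Itgb3 (-0.20 to 0.043), Itgb5 (-0.17 to 0.59), Itgb6 (-0.19 to 0.30), Itgb8 (-0.18 to 0.22) and Itga2 (-0.20 to 0.089) in Celastrol against Bleomycin. They did so for Itgav (-0.070 to 0.11), Itgb5 (-1.50 to 0.010), Itga5 (-1.11 to 0.22) and Itga1 (-0.31 to 0.077) in Celastrol against PBS, and for Itgav (-0.086 to 0.093), Itga5 (-0.59 to 0.75) and Itga1 (-0.045 to 0.34) in Bleomycin against PBS. With a lone PBS library, its spread is assumed to equal that of the other groups. Depth limits Itga11 most, at an estimated 24 to 311 reads.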
